A study of Homo sapiens with 6 samples.

Results

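The mRNA content of HSC3, an established line grown from a human tongue carcinoma of squamous type, was described by the signal of each gene on the control array, and the array of cells treated with MIA siRNA was used to check the order. These are 2 of the 6 one-colour arrays in the set, each hybridized with Cy5-labelled total RNA of HSC3 cells and each the only array of its condition. The control cells are called control in the sample labels, control siRNA cells in the deposited design and untreated cells in the methods. The second array is of cells given an siRNA against MIA, which encodes a secreted protein of melanoma and cartilage. MIA itself was near background on both arrays, with signals of 9.93 on control and 14.1 on MIA siRNA, so its level does not check the label of either. The arrays hold no normal oral mucosa and no repeat of either condition. Every value below is therefore 1 measurement without a replicate error, and no test was run.

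Squamous epithelium renews itself from a basal layer that is fixed to a basement membrane by integrins and hemidesmosomes and carries keratins KRT5 and KRT14. As the cells move upwards they switch to other keratins, such as KRT4 and KRT13 in the oral mucosa, and make the proteins of the cornified envelope. Carcinomas of this epithelium usually keep part of this programme, and the microRNAs miR-205 and miR-31 and the transcription factor p63 are well known in it.

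Signal means the brightness of a spot less its local background, brought to the same distribution on all 6 arrays, in arbitrary units. A gene was called above background where the scanner flag of its spot was good or saturated, and near background where the scanner flagged it so. On the control array 18693 named genes had such a call and 13362 of them, 71.5%, were above background. Their median signal was 199.9, their quartiles were 98 and 448, and the highest 5% began at 1611. The genes above background that were at or over this median, 35.7% of the genes with a call, are called the upper range below, and the others above background the lower range. On the MIA siRNA array 71.1% of 18711 genes were above background. Brightness also depends on how well a probe binds its target, so the order is one of spots and not of mRNA amounts. A gene with several probes is given by its brightest over all 6 arrays unless stated, and its other probes can be far dimmer.

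The background of the array was measured by 384 spots of 32 negative control probes. Before normalization they had a median of 10.1 on the control array, a 95th percentile of 22.6 and a highest value of 54.6, and 1 of them was flagged good. On control the dimmest good gene probe had a normalized signal of 34.2 and the brightest probe called near background 58.6, so calls overlapped between these values. On MIA siRNA the same limits were 32.5 and 79.9. Repeat spots of 25 positive control probes had a median coefficient of variation of 11.5% within the array, which covers the spotting error and nothing between cultures.

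A good flag was not limited to genes that an epithelial line is known to use. Of the olfactory receptors, the odour sensors of the nose, 71 of 102 were above background, a share of 69.6% that is close to the 71.5% of all named genes. MYOD1, the muscle transcription factor, had a signal of 1759 on control and 1979 on MIA siRNA, and SFTPC, a lung surfactant protein, had 1979 and 1948. Both were measured by a single probe. What these spots bound was not tested, and counts of genes above background are read below beside the 71.5% and the 35.7%.

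The 60 bases before the start of 4 bright genes are shown as examples of different promoter kinds. They were picked once their values had been seen and do not give the share of each kind. Capitals mark each CG pair, the site of DNA methylation in vertebrates. The sequences are from RefSeq on GRCh38.p14, read 5′ to 3′ on the strand of the gene: EEF1A1 at chr6:73521033-73521092 on the minus strand, RPLP1 at chr15:69452758-69452817 on the plus strand, KRT8 at chr12:52926470-52926529 on the minus strand, and MIR205HG at chr1:209428760-209428819 on the plus strand.
EEF1A1: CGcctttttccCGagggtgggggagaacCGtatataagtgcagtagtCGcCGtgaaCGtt
RPLP1: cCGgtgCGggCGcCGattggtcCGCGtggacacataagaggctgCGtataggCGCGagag
KRT8: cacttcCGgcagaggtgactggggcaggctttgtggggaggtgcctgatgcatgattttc
MIR205HG: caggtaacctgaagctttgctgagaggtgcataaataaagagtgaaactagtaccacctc
The windows of EEF1A1 and RPLP1, which encode a translation factor and a ribosomal stalk protein, held 6 and 9 CG pairs. That of KRT8, a keratin of simple epithelia, held 1, and that of MIR205HG held 0. Over the 250 bases before the start, protein-coding genes in the upper range were CpG-rich in 75.4% of the 5192 with a promoter in the table, and those in the lower range in 64.0% of 4670. CpG-rich means over 50% G and C and over 0.6 of the CG pairs that the base composition gives. Of the 25 brightest named genes, 21 had a promoter in the table, and 17 of these were CpG-rich. KRT8, at rank 27, was not among them. The share was 79.5% of 550 genes in the highest 5% of signals and 83.3% of 54 ribosomal protein genes above background. Among all 27305 promoters in the table it was 44.7%. These were not limited to protein-coding genes or to genes with a call, so that share is not a like comparison. The letters TATAAA, on the strand of the gene between 40 and 20 bases before the start, stood in 2.37% of the upper range, 2.96% of the lower range and 2.48% of all promoters. The share of near-background genes with a promoter in the table, 77.8%, was under the 80% set as the least for this comparison, and no value is given for them.

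Several bright or well-known genes of this line are hosts of microRNAs, short RNAs that pair through their seed with target mRNAs. The mature microRNAs of 4 hosts are shown with the seed, bases 2 to 8, in capitals, from RefSeq on GRCh38.p14.
hsa-miR-205-5p: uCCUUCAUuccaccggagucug
hsa-miR-31-5p: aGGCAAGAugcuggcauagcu
hsa-miR-944: aAAUUAUUguacaucggaugag
hsa-miR-135b-5p: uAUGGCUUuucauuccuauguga
The 4 seeds differ from each other. The array did not measure the mature microRNAs, so the values are those of the host transcripts. MIR205HG, the host of miR-205 at chr1:209432166-209432187, had the 12th highest signal of all named genes, 14206 on control, and the 6th highest, 16780, on MIA siRNA. MIR31HG, the long noncoding host of miR-31 at chr9:21512158-21512178, had 2527 and 2310. TP63, which encodes p63 and holds miR-944 at chr3:189829975-189829996, had 856 and 705. LEMD1, a cancer-testis antigen gene that holds miR-135b at chr1:205448361-205448383, had 278 and 195. All of them were in the upper range on control. Hosts were sought only among named genes with a promoter in the table, which gave their strand. There 655 genes with a call held 739 microRNA genes on their own strand, and 527 of these hosts, 80.5%, were above background. The share was 71.5% among all named genes and 75.7% among protein-coding genes. These were not limited to genes with a promoter in the table, so the shares are not a like comparison.

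The order of signals was much the same on the MIA siRNA array. Across the 12773 genes above background on both arrays, the Spearman correlation was 0.976; the points share a normalization, and genes are not independent replicates. The call was the same for 94.6% of the 18652 genes with a call on both, and 94.4% of the upper range on control was also in the upper range on MIA siRNA. The 548 genes above background on control alone were dim, with a median of 51.0 and a highest of 148 for CHRNB4, a nicotinic receptor subunit. In rank, 1320 genes, 10.3%, moved by over 10 percentiles. The widest move among them was that of PLA2G4C, a phospholipase, from a signal of 320 on control to 64.9 on MIA siRNA. Of a second array with another treatment, this shows how far the order held and not its error.

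**Figure D1:**
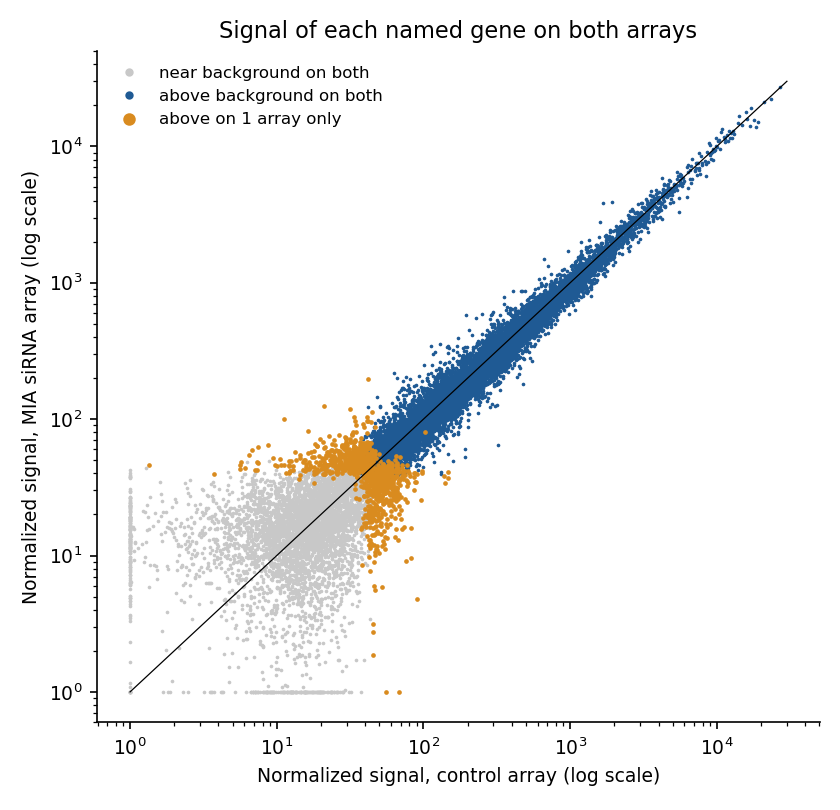
Normalized signal of each named gene on the control array (horizontal, log scale) and on the MIA siRNA array (vertical, log scale), 1 point per gene, with the line of equal signal. Blue points were above background on both arrays, grey points near background on both, and orange points above on 1 array; the blue points lie along the line and the orange ones sit at its dim end.

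The brightest spots belonged to genes of translation and glycolysis and to a few genes of the cell surface. Of the 25 named genes of highest signal, 12 encode ribosomal proteins, among them RPL41 at 20979, RPLP1 at 17793 and RPS2 at 17057. EEF1A1, which brings aminoacyl-tRNA to the ribosome, had the highest signal, 27048 on both arrays. The normalization gives the brightest gene probe of each array the same value, so the arrays share the rank and not a measured level. Of the 4 EEF1A1 probes, 3 had 14440, 25333 and 27048 on control and the other was near background. The translation-related genes TPT1 and RACK1 had 14792 and 13897. GAPDH and ENO1, enzymes of glycolysis, had 23315 and 16780, and SLC25A5, the ADP/ATP carrier of mitochondria, 15955.

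PLAU stood among these genes of every cell. It encodes urokinase, the protease that turns plasminogen into plasmin at the cell surface, and had the 4th highest signal, 19037 on control and 15098 on MIA siRNA. ANXA2, a membrane protein that binds plasminogen and its activator, had 11429 and 11300. A probe named for KRT18P59, a pseudogene resembling KRT18, had 15692 and 17793, while its other probes had 467 and 42.7 on control; such a near-identical copy may share signal with KRT18, so this name is uncertain. ACTG1, a cytoskeletal actin, and CHCHD2, a mitochondrial protein, were also in the list, with the ribosomal protein genes and MIR205HG.

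These 25 genes held 6.09% of the summed signal of all named genes above background, and the brightest 100 held 14.7%. On the MIA siRNA array 23 of the 25 were again among the first 25, and the lowest of them, ACTG1, had rank 29. Of the brightest 100, 91 were among the first 100 there. Ribosomal protein genes made up 34 of the brightest 100 but 41 of the brightest 500. Many ribosomal protein genes have processed pseudogenes whose transcripts a probe could also bind.

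**Figure D2:**
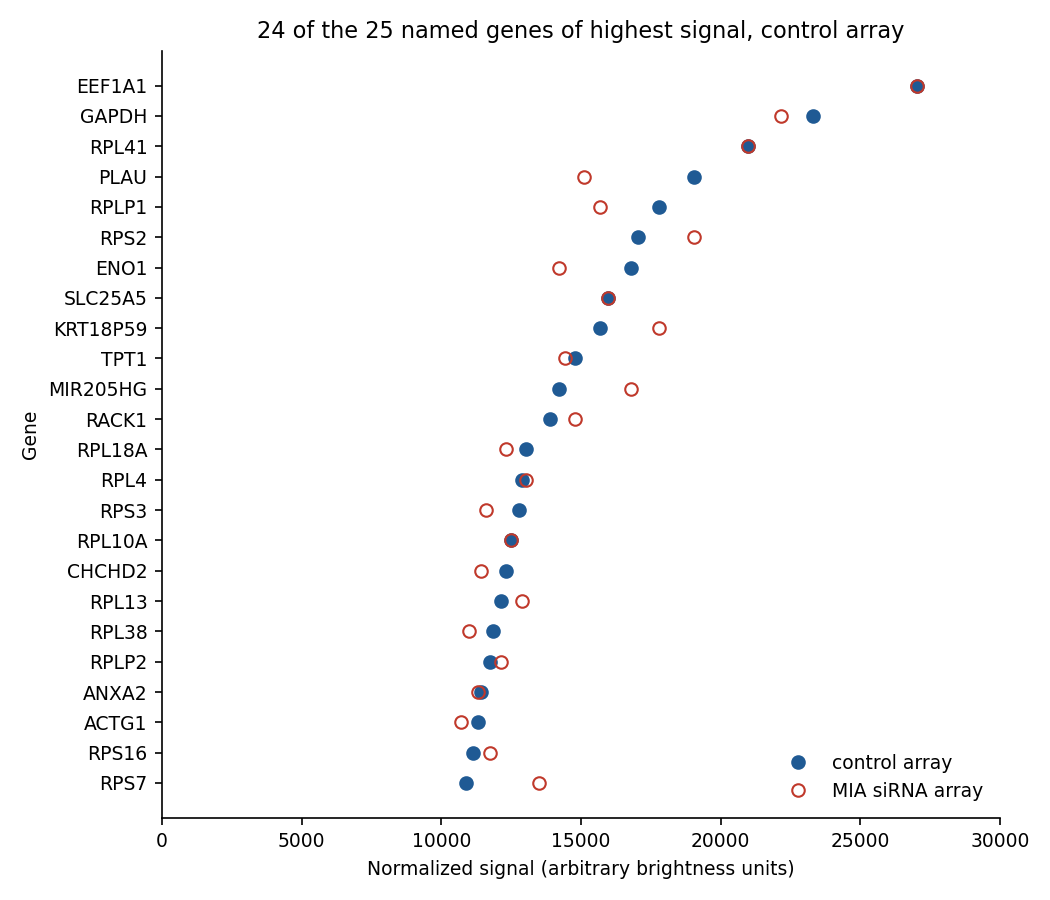
Normalized signal (horizontal, arbitrary units, linear from 0) of the 25 named genes of highest signal on the control array, filled for control and open for MIA siRNA. 1 of the 25 is not drawn. EEF1A1 leads on both arrays at 27048, the value that the normalization gives to the highest rank. PLAU lies at 19037 on control and 15098 on MIA siRNA.

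Whole machineries of the cell were above background. Of the ribosomal proteins 64 of 65 were, with a median signal of 5416 beside the 199.9 of all named genes above background. Proteasome subunits, which degrade tagged proteins, were above background in 37 of 37, respiratory complex I subunits in 29 of 29 and aminoacyl-tRNA synthetases in 33 of 33. At the other end, beside the 71.5% of all named genes, were some families of specialised cells or of induced responses. Of the type I interferons 4 of 11 were above background, with none in the upper range. Defensins, antimicrobial peptides, were above background in 6 of 19 and taste receptors in 7 of 17. These families were picked once their values had been seen, and other families of specialised cells were nearer the share of all genes. Voltage-gated potassium channels were above background in 69.0% and GABA and glutamate receptor subunits in 63.4%.

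**Figure D3:**
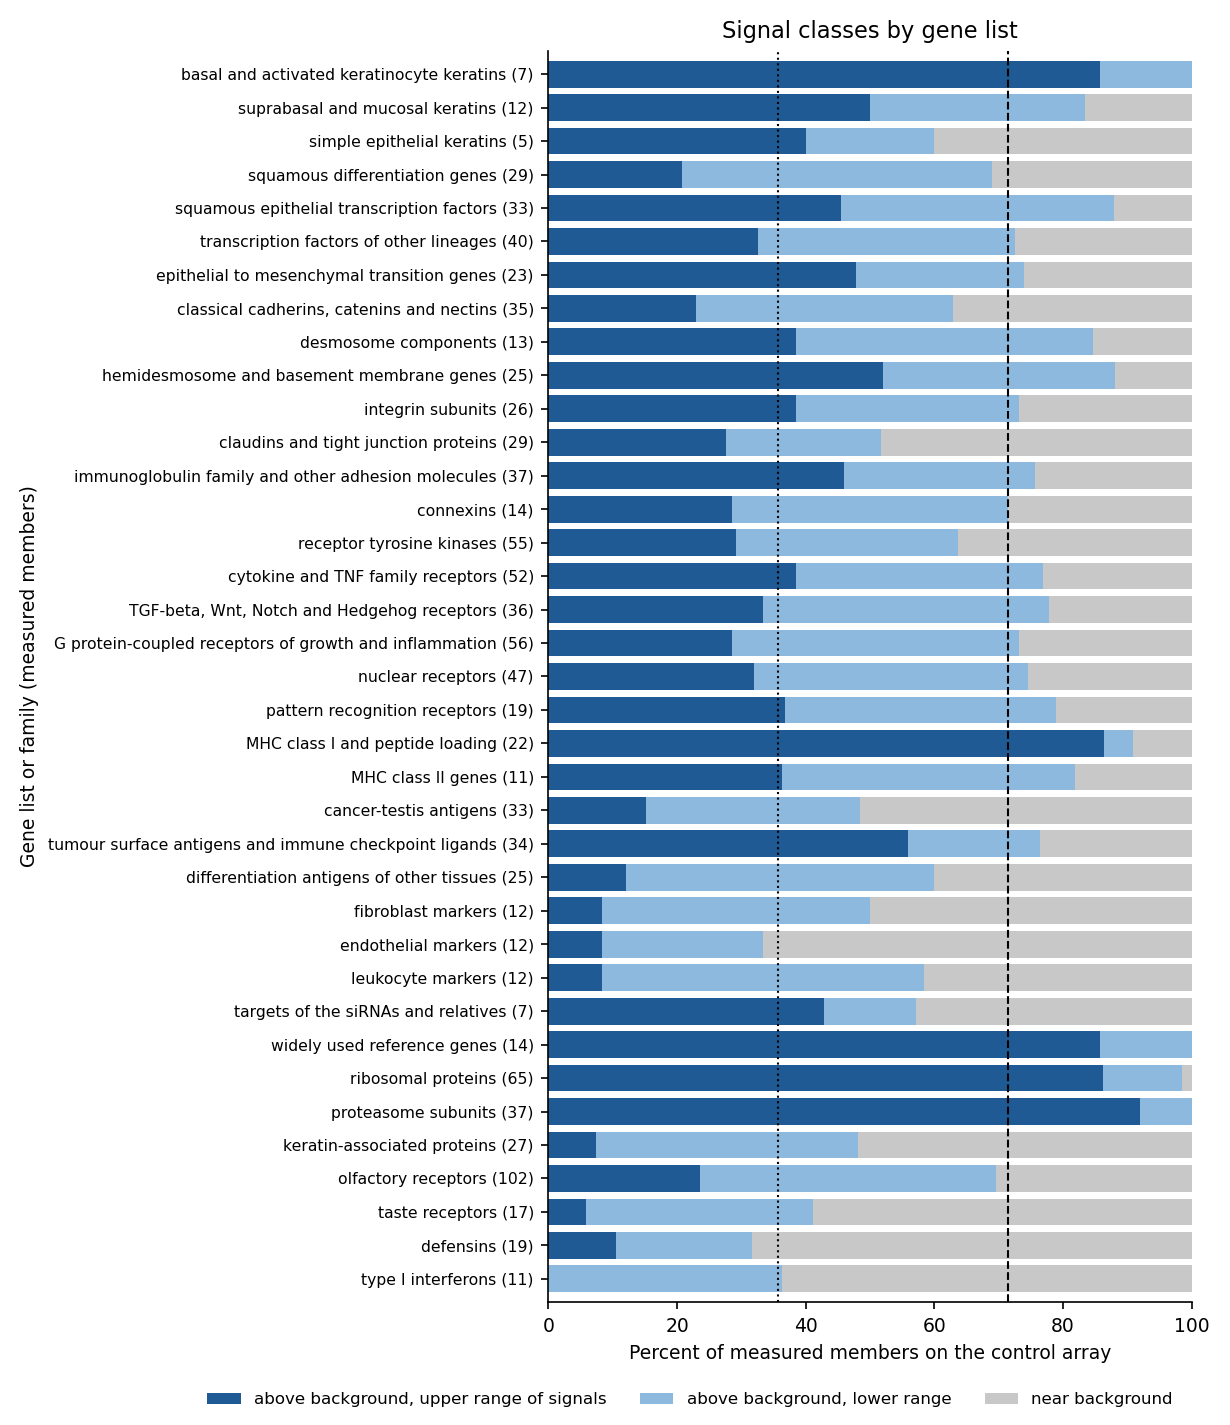
Percent of the measured members of the gene lists and of a selection of families on the control array that were above background in the upper range of signals (dark), above background in the lower range (light) or near background (grey), with the number measured in parentheses. The dashed line marks the 71.5% of all named genes above background and the dotted line the 35.7% in the upper range; of the groups drawn, proteasome subunits, MHC class I genes, ribosomal proteins, basal keratins and the reference genes have the longest dark bars.

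Among lineage genes the keratins had the strongest signals. All 7 measured keratins of basal and activated keratinocytes were above background and 6 of them were in the upper range. KRT19, KRT15 and KRT14, keratins of basal and undifferentiated cells, had 7883, 7215 and 5354 on control and 7579, 6976 and 6483 on MIA siRNA. KRT5, the partner of KRT14, had 1558 and 1867. KRT16, a keratin of activated cells, had 549 and 521. KRT17 was the dimmest, with 83.2 and 68.5. The simple epithelial pair KRT8 and KRT18, which line glands and are known in many carcinomas, was brighter still. KRT8 had 10524 on control and 9560 on MIA siRNA, and KRT18 had 8785 and 10524 by its brighter probe and 3280 and 3572 by the other. KRT7, a keratin of glandular ducts, had 113, and KRT20, of the gut, was near background.

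Keratins of the upper layers were present at lower signals. Of 12 measured, 10 were above background on control, 83.3%, and 8 on MIA siRNA, beside 71.5% and 71.1% of all named genes. KRT13 and KRT4, the pair of the non-keratinized mucosa, had 1257 and 563 on control and 957 and 491 on MIA siRNA. KRT1, of the keratinized epidermis, had 43.9 on control and was near background on the other array, and its partner KRT10 was near background on both.

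Of 29 measured genes of squamous differentiation, 20 were above background, 69.0%, and 6 were in the upper range, beside 71.5% and 35.7% of all named genes. KLK5, a protease of desquamation, led with 7694 on control and 6261 on MIA siRNA, followed by S100A14, a calcium-binding protein, with 4577 and 5216, and PPL, the envelope protein periplakin, with 662 and 727. Other genes of the cornified envelope had lower signals. TGM1, the cross-linking enzyme, had 143 on control, SPRR3 108, LORICRIN 62.9 and SPRR1B 50.5. IVL and FLG, for involucrin and filaggrin, were near background on both arrays, as was S100A8, a calprotectin subunit. CRNN, for cornulin, was near background on control at 40.6 and above it on MIA siRNA at 56.4, levels at which calls overlapped.

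Transcription factors of squamous epithelium were above background in 29 of 33, 87.9%, with 15 in the upper range, beside 71.5% and 35.7% of all named genes. ELF3, an epithelial ETS factor, had 2712 on control and 2299 on MIA siRNA. KLF5, a factor of proliferating epithelium, had 1681 and 1707, and TFAP2C, an AP-2 factor, 1107 and 839. PAX9, a factor of the oral cavity and the oesophagus, had 799 and 1067. These are values of the brighter probe. The dimmer probes of KLF5, TFAP2C and PAX9 had 81.0, 87.2 and 125 on control. TRIM29 had 492 on control, PITX1 264, TFAP2A 241, GRHL2 156 and BNC1 72.0. SOX2, an oesophageal and stem cell factor, was near background on both arrays at 29.9 and 20.8.

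Factors that define other lineages were above background in 29 of 40, 72.5%, close to the share of all genes. MYOD1 led, as given above, followed by the haematopoietic factors GATA2 at 697 and TAL1 at 580 on control. PAX8 had 230, NKX2-1 205, HNF4A 153 by 1 of its 2 probes and CDX2 73.5 by the brightest of its 4 probes, while SOX10, SPI1 and POU5F1 were near background. The brightest of these therefore overlapped in signal with the squamous factors.

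Genes of the epithelial to mesenchymal transition were above background in 17 of 23 measured, 73.9%, near the 71.5% of all named genes. The protease MMP10 had 1226 on control and 1309 on MIA siRNA. SNAI2, a repressor that is also known in basal keratinocytes, had 855 and 747 by 1 of 2 probes, the other being near background. SPARC had 489, FN1, for fibronectin, 373 and TWIST1 160 on control, and PDPN, for podoplanin, 58.5. CDH2, for N-cadherin, and the repressors ZEB1 and ZEB2 were near background on both arrays. No named probe was used for CDH1 or VIM, so E-cadherin and vimentin have no value here.

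**Figure D4:**
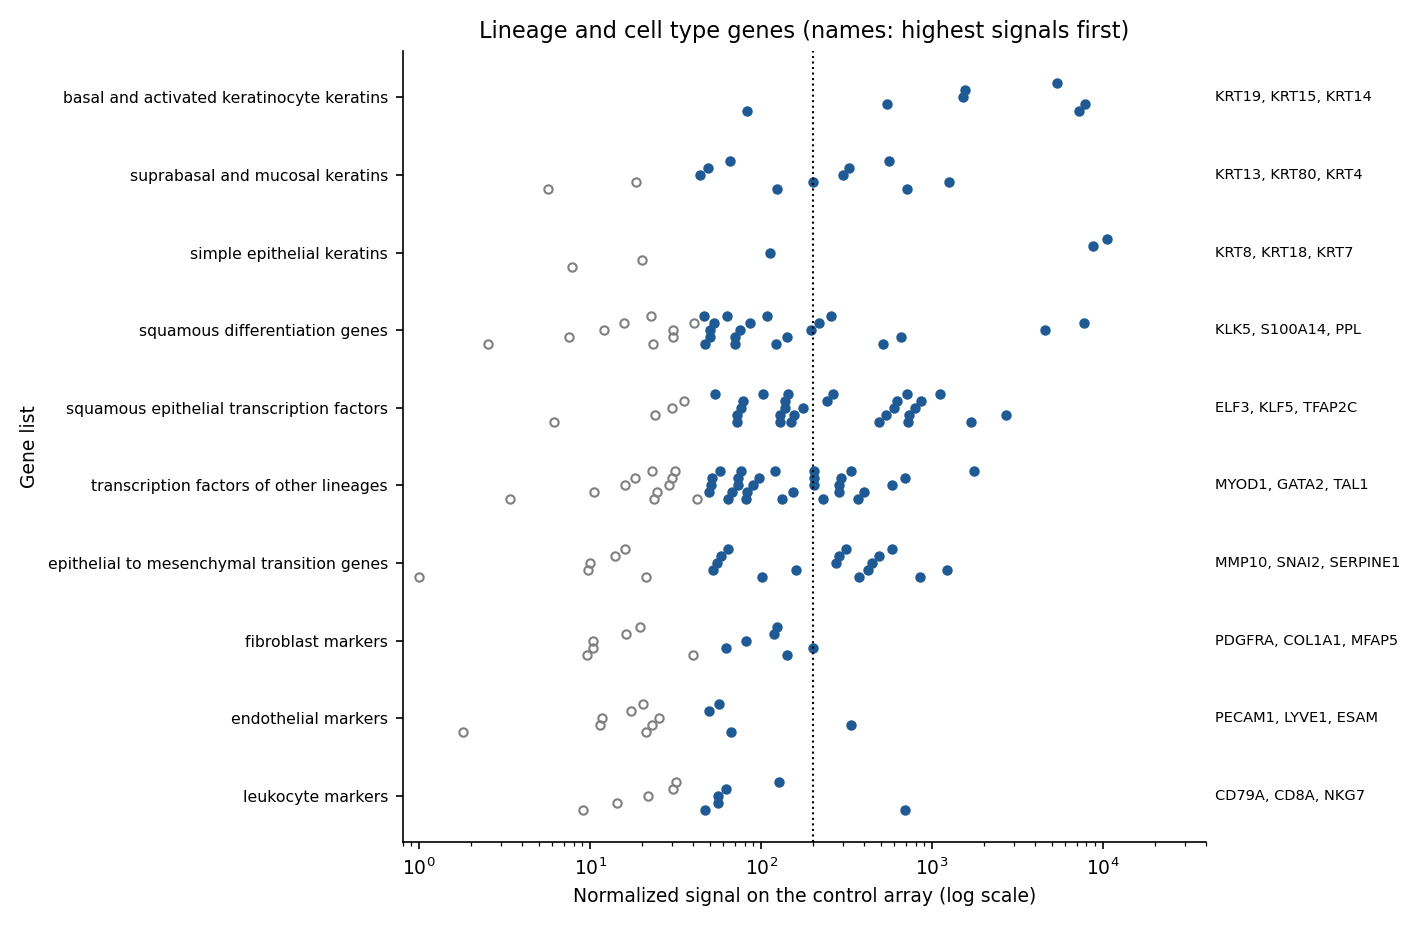
Normalized signal on the control array (horizontal, log scale) of the members of the lineage and cell type lists, filled where above background and open where near it, with small vertical offsets for legibility only and the highest 3 of the members drawn named at the right. The dotted line marks the median of 199.9 of named genes above background; KRT8 at 10524 and KRT18 at 8785 lie far to its right, and 3 fibroblast, endothelial and leukocyte markers lie at or beyond it.

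Markers of other cell types were mostly dim. Of 36 measured, 17 were above background, 47.2%, and 3 were in the upper range. The endothelial markers CDH5, VWF and KDR were near background on both arrays, and PECAM1 had 338 and 113 by 2 probes on control with the third near background. PTPRC and ITGAM of leukocytes were near background, while CD79A, of B cells, had 697. CD3E had 46.9 and MS4A1 55.6. The collagen COL1A1 had 142 and PDGFRB 120 on control, LUM had 62.7, and COL1A2, COL3A1 and DCN were near background there. COL1A2 was above it on MIA siRNA at 62.4, a level at which calls overlapped on that array. A list of 12 squamous markers, chosen with earlier results of these data known, included 11 with a named probe. Among them were KRT5, KRT14, KRT17, TP63, TRIM29, BNC1, PKP1, DSG3, COL17A1 and ITGB4. All 11 were above background on control, beside 71.5% of all named genes, and some were dim, such as BNC1 at 72.0.

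Among the 7 adhesion lists, that of attachment to the basement membrane had the highest share above background, 22 of 25 measured genes or 88.0%, and 13 were in the upper range. LAMA3 and LAMB3 encode laminin chains. LAMA3 had 4327 on control and 4621 on MIA siRNA, and LAMB3 had 1432 and 1209 by its brighter probe. The other LAMB3 probe had 51.5 on control and 102 on MIA siRNA. LAMA5, of laminin-511, had 8379 and 6013. The hemidesmosome genes ITGB4 and COL17A1 had 543 and 333 on control and 470 and 243 on MIA siRNA. A dimmer ITGB4 probe had 47.2 on control and 50.2 on MIA siRNA, levels at which calls overlapped. FERMT1, for the integrin activator kindlin-1, had 814, and COL7A1, of the anchoring fibrils, 317.

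Among the integrins, 19 of 26 subunits were above background, 73.1%, near the 71.5% of all named genes. The subunits of the epithelial receptors for laminin and collagen were the brightest. ITGA3 had 7066 on control and 6572 on MIA siRNA, ITGA6 had 5097 and 4743, ITGB1 had 4001 and 3480, and ITGA2 had 2448 and 2090. ITGAV, of the vitronectin receptors, had 302 on control, ITGA5, of the fibronectin receptor, 285, and ITGB6 59.4. ITGB2, a leukocyte subunit, had 236, and ITGB3 had 91.4 by 1 probe and 35.0, near background, by the other. ITGB5 and ITGA4 were near background on both arrays.

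Junctions between cells had lower signals. Desmosome components, which anchor keratin filaments from cell to cell, were above background in 11 of 13, 84.6%, with 5 in the upper range. The shares of all named genes were 71.5% and 35.7%. JUP, for plakoglobin, had 2821 on control and 2203 on MIA siRNA, and PERP had 1157 and 1087. PKP3 had 577, DSG2 399, DSC3 195, DSC2 193, PKP1 164 and DSG3 133 on control. DSP, for desmoplakin, had 76.3 and DSG1, of upper layers, 48.3. Among cadherins, catenins and nectins 22 of 35 were above background, 62.9%. CTNNA1, for alpha-catenin, had 1188, CDH3, for P-cadherin, 808 and NECTIN1 330, while CTNNB1, for beta-catenin, had 48.0 on control and 66.9 on MIA siRNA by its only named probe. CDH11, a mesenchymal cadherin, had 109.

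Of the claudins and tight junction proteins 15 of 29 were above background, 51.7%. CLDN7, F11R and CLDN4 had 1455, 1419 and 1294 on control and 1137, 1217 and 1131 on MIA siRNA. The scaffold TJP1 had 474, CLDN1 243 and OCLN, for occludin, 128 by 1 of 2 probes. CLDN3 and CLDN18 were near background. Among the connexins of gap junctions GJB1 had 305 on control, and GJB2 and GJA1 were near background on both arrays.

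Other adhesion molecules were above background in 28 of 37, 75.7%, near the 71.5% of all named genes. CD63, a tetraspanin of late endosomes, had 4060 on control. EPCAM, the epithelial cell adhesion molecule, had 3597 on control and 3882 on MIA siRNA. The hyaluronan receptor CD44 had 2072 and 1991 by its brighter probe. ALCAM had 1822, the tetraspanin CD9 1396, CEACAM6 1332, ICAM1 1191 and the syndecan SDC1 1035 on control. CEACAM5 had 199, L1CAM 144, NCAM1 67.3 by 1 of 3 probes and VCAM1 62.6.

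Receptors were above background in 194 of 265, 73.2%, close to the 71.5% of all named genes. Of the receptor tyrosine kinases, which start growth signals, 35 of 55 were above background, 63.6%, and all 55 had the same call on both arrays. EGFR was the brightest with 1285 on control and 1352 on MIA siRNA by 1 of its 3 probes. Its other probes were above background too but far dimmer, with 199 and 226 on control. ERBB2 had 876 and 778 by 1 probe with the other near background, and ERBB3 was near background. IGF1R had 735 and 867. EPHA2 had 422, FGFR1 397, KIT 269, MET, the receptor of hepatocyte growth factor, 155 and AXL 148 on control. FGFR3, ALK and KDR were near background on both arrays. ERBB4 had 256 by 1 of 5 probes and the other four were near background on control.

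Of the cytokine and TNF family receptors 40 of 52 were above background, 76.9%, beside the 71.5% of all named genes. TNFRSF12A, the receptor of TWEAK, had 2955 on control and 2831 on MIA siRNA, and the death receptor TNFRSF21 had 1949 and 1588. By a dimmer probe TNFRSF21 had 125 on control. The interferon receptors IFNGR1 and IFNAR1 had 658 and 420 on control, IFNGR1 by 1 of 2 probes. TNFRSF10B, a receptor of TRAIL, had 503, TNFRSF1A 476 and CD40 372. IL4R had 167 and 244 by its 2 probes, IL6R 146 by 1 of 2 probes, OSMR 130 and FAS 123. For interleukin 1 the decoy receptor gene IL1R2 had 374, while IL1R1 had no named probe.

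Receptors of TGF-beta, Wnt, Notch and Hedgehog ligands were above background in 28 of 36, 77.8%, beside the 71.5% of all named genes. All 36 had the same call on both arrays. ACVR1B, an activin receptor, had 1050 on control and 953 on MIA siRNA, and LGR6, a receptor of R-spondins, 763 and 699. FZD3 had 662 and 1488 by 1 probe, and its other probe was near background on both. PTCH1 had 413, NOTCH3 286, NOTCH2 192, NOTCH1 158, LRP6 125 and FZD6 87.7 on control. The dimmer probe of PTCH1 had 36.2, a level at which calls overlapped, and that of NOTCH1 60.5. TGFBR2 had 114 by 1 probe and 33.9, near background, by the other, and TGFBR1, LGR5 and SMO were near background on both arrays.

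Among the G protein-coupled receptors 41 of 56 were above background, 73.2%, near the 71.5% of all named genes. GPRC5A, a retinoic acid-induced orphan receptor, had 1352 and F2RL1, the protease-activated receptor PAR2, 1169 on control, with 1123 and 1101 on MIA siRNA. CCR7, a chemokine receptor known for lymph node homing, had 543 and 716, and CXCR4 had 43.7 on control and was near background on MIA siRNA. The nuclear receptors were above background in 35 of 47, 74.5%, also near that share, and were led by PPARA with 1410 on control. NR3C1, the glucocorticoid receptor, had 860 by 1 of 2 probes and VDR, the vitamin D receptor, 415. Among sensors of microbial products 15 of 19 were above background, 78.9%. CGAS, the sensor of cytosolic DNA, had 565 and NLRP1, an inflammasome sensor of keratinocytes, 510.

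Antigen presentation by MHC class I had high signals. Of its 22 measured genes 20 were above background, 90.9%, and 19 were in the upper range. A probe named HLA-G had 7579 on control and 6913 on MIA siRNA and the other HLA-G probe 407 and 445; the class I genes are close in sequence, so which transcripts these probes bound is uncertain. B2M, the shared light chain, had 3911 and 4524. CANX, the chaperone calnexin, had 5695. The immunoproteasome subunit PSMB8 had 2940, the peptide transporter TAP1 505 and the natural killer ligands MICA and ULBP2 743 and 363. NLRC5, the regulator of class I genes, had 99.4.

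MHC class II genes were above background in 9 of 11, 81.8%, with 4 in the upper range, beside 71.5% and 35.7% of all named genes. HLA-DOB had 719, HLA-DMA 264 and the class II regulator CIITA 225 by 1 of 2 probes. The main chain HLA-DRA was near background by both of its probes, and HLA-DPA1 had 46.5 by 1 of 2 probes.

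Cancer-testis antigens, proteins of germ cells that tumours can make, were above background in 16 of 33, 48.5%, with 5 in the upper range. MAGEA4 stood far above the rest with 5839 on control and 5354 on MIA siRNA from 1 probe. ATAD2, a chromatin ATPase, had 1151, and IGF2BP3, an mRNA-binding protein, 878 on control and 997 on MIA siRNA. By a dimmer probe ATAD2 had 105 on control. LEMD1 had the 278 given above, PRAME 104, LY6K 85.5, and MAGEA1 was near background on both arrays. MAGE genes are close in sequence and their probes may share targets.

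Tumour surface antigens and checkpoint ligands were above background in 26 of 34, 76.5%, with 19 in the upper range. The shares of all named genes were 71.5% and 35.7%. F3, for tissue factor, the starter of coagulation, had 4621 on control and 5043 on MIA siRNA. CD59, which shields cells from complement, had 4197 and 1451 by 2 probes on control with the third near background. TFRC, the transferrin receptor, had 1124 by 1 of 2 probes. CD24 had 524, SLC2A1, the glucose transporter GLUT1, 370, MUC1 303, PSCA 266 and CD276 98.5 on control. CD274, for the checkpoint ligand PD-L1, was near background on both arrays at 21.0 and 21.4, as was MSLN, for mesothelin, and PDCD1LG2, for PD-L2, had 66.1.

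Differentiation antigens of other tissues were above background in 15 of 25, 60%, beside the 71.5% of all named genes. The 3 in the upper range were SFTPC, given above, SYP, for synaptophysin, with 1185 on control and 1324 on MIA siRNA, and PMEL. The melanocyte antigen PMEL had 249 by 1 of 2 probes. CHGA, for chromogranin, had 177. KLK3, for prostate-specific antigen, had 138 by 1 probe on control alone. MLANA, of melanocytes, was near background on both arrays.

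**Figure D5:**
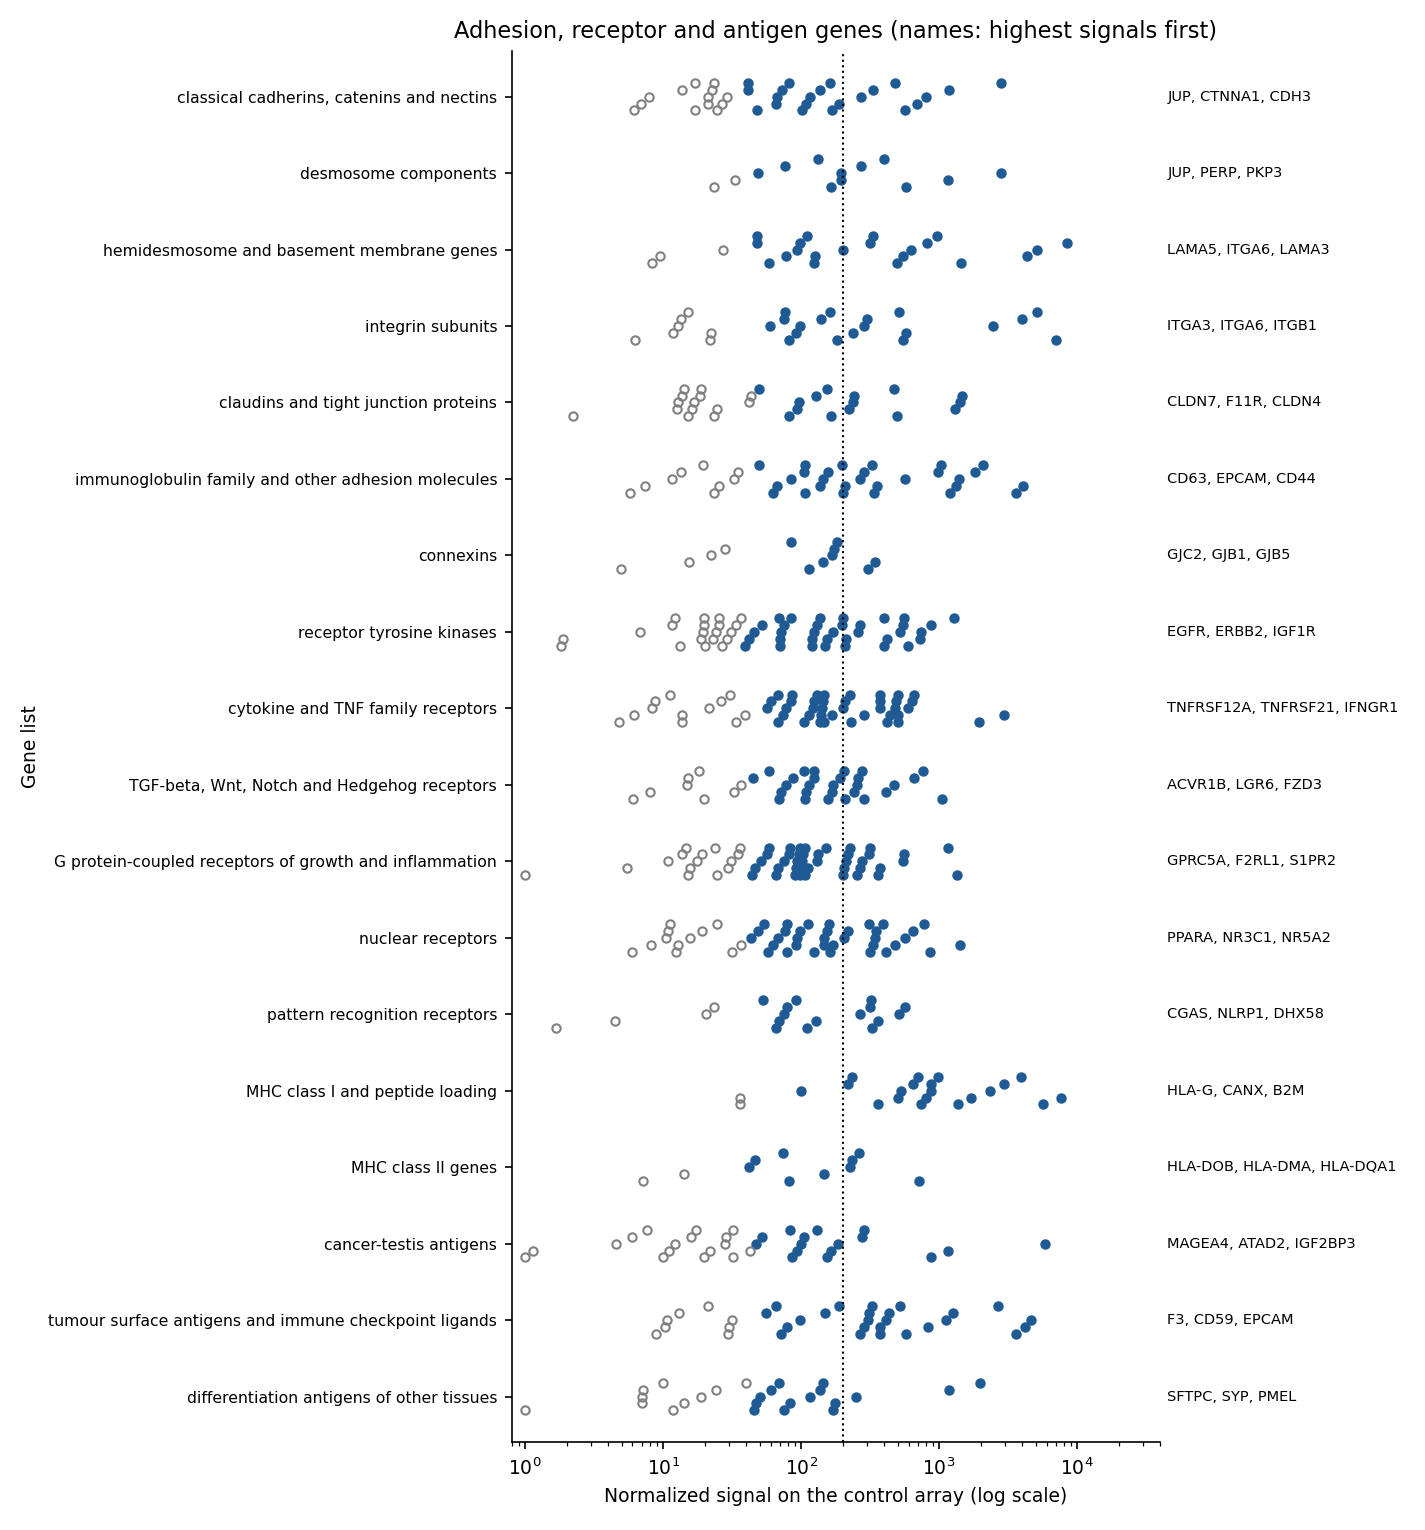
Normalized signal on the control array (horizontal, log scale) of the members of the adhesion, receptor and antigen lists, filled where above background and open where near it, with small vertical offsets for legibility only and the highest 3 of the members drawn named at the right. The dotted line marks the median of 199.9 of named genes above background; LAMA5 at 8379, HLA-G at 7579, ITGA3 at 7066 and MAGEA4 at 5839 lie far to its right.

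The genes that the siRNAs of this set were aimed at had different baselines. MIA was near background and LEMD1 had 278 on control, both as given above. SLC47A2, also called MATE2, a drug and toxin exporter, had 1510 on control and 1334 on MIA siRNA. SRPX2, a secreted ligand of the urokinase receptor, had 1411 and 1016. It is the gene that the study follows and was no target of the siRNAs of these arrays. MIA2 had 155 and 138 by 1 of its 2 probes, and the other was near background on both arrays at 18.6 and 29.0. Which transcripts of MIA2 each probe bound was not tested, so its baseline is uncertain. MIA3, also called TANGO, had no named probe. Reference genes were all above background on control, 14 of 14, from 115 for GUSB to EEF1A1, with ACTB at 2120 and HPRT1 and TBP at 662 and 539.

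The choice of probe touched many calls. Of 4168 named genes with several probes, 1823, 43.7%, had at least 1 probe above and 1 near background on control. Where 2 or more probes were above background, the brightest exceeded the dimmest by a median of 2.61-fold, and by over 4-fold in 34.8% of 2191 genes. Of the list members with several probes, 77 of 202 were split. A gene with 1 probe was above background in 66.9% of cases and a gene with several, judged by its brightest, in 87.3%. By kind of gene, 75.7% of protein-coding genes and 46.0% of long noncoding RNAs were above background.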

How the data were processed

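RNA of HSC3 cells, Cy5-labelled, had been hybridized to CodeLink Human Whole Genome Bioarrays, 1 array per condition. Spot intensity was read from the deposited scanner files, which name version 5.0.0.31312 of CodeLink Expression Analysis as their software. The authors also deposited a table that they had quantile normalized, used here as an alternative. The value taken was spot mean less local background median, which held within 0.0001. Gene probes masked on any array (320) were left out, the other 53103 were quantile normalized over the 6 arrays, with a floor of 1 for lower values.

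Probes were named from the platform annotation, updated to current symbols (23273) or kept (38), or by accession (649), which gave 18757 genes. Of the rest, 28245 probes had no gene name and 898 several. A gene with several probes was represented by its brightest in mean log2 over all 6 arrays. Groups came from the sample labels. The 25 brightest genes, the defining members of 30 gene lists and the 3 brightest members of each list were named, some genes being counted and not reported here by name or drawn by gene; the families, PLA2G4C, CHRNB4, the microRNA hosts, the promoters shown and the few other genes named were picked once their values had been seen. The members and lists were chosen with earlier results of these data known. With 1 array per condition no test was run. Quantile normalization and ranking were tested on simulated data. The number of arrays limits the precision. Alternatives were other background corrections (normexp with an offset of 50 in limma 3.58.1 under R 4.3.3, or none), other scalings, other rules for a call and other probes. Python 3.11.15, pandas 2.3.3 and scipy 1.17.1 were used.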

Additional observations from a re-analysis of the deposited data

Results flagged for a closer look

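Among the 29143 probes that have no single gene name and enter no count of genes, 8 had a signal on the control array at or above that of the 25th named gene, RPS7 at 10876, beside a highest negative control spot of 54.6 before normalization.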

How the results depend on the processing

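The count of 13362 genes above background on control stayed within 1.5 times under every other rule tried, from 11566 where every probe of the gene had to be above background to 14955 by the 95th percentile of the negative control spots; with no filter, 18757 genes enter. Of the 25 brightest genes 25 were kept without background correction, 23 in the order of the MIA siRNA array and 21 by the mean over probes. All 25 were also kept with normexp, without saturated spots and in the deposited table, but these alternatives could not change the list. Normexp and quantile normalization keep the order of spots within an array, and all 25 spots were flagged good. The Spearman correlation between the control and MIA siRNA arrays was 0.97436 over all unmasked genes and 0.97634 without background correction. With normexp the correlation stayed at 0.97597, and it could not move because normexp keeps the order within an array. Between control and the other arrays it was lower, 0.93415 for LEMD1 siRNA, 0.90838 for MIA2 siRNA, 0.85539 for TANGO siRNA and 0.84603 for MATE2 siRNA; the cause was not tested. The median signal of genes above background was 203.28 with each array scaled to its median and 197.22 with both arrays normalized alone. Of 90 list counts under alternatives, 87 stayed within 1.5 times. Requiring every probe to be above background left 23 nuclear receptors instead of 35, 5 MHC class II genes instead of 9 and 2 endothelial markers instead of 4, as that rule leaves out genes with split probes. Signal over background limits the calls: values between 34.2 and 58.6 on control, and between 32.5 and 79.9 on MIA siRNA, could be called either way. No paired analysis was possible because each condition has 1 array and no test was run.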
